A study of Oryza sativa Japonica Group with 15 samples.

Results

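The comparison followed 1 dissected piece of tissue, the upper flank of the rice shoot base, from 0.5 h to 6 h after seedlings were laid horizontally. It used 6 of the 15 arrays of the series, chosen by their labels: 3 of the upper flank at 0.5 h and 3 of the upper flank at 6 h. The shoot base is the short zone just above the root where a grass seedling bends upward again, and the upper flank is the side that faces the sky after reorientation. All plants were japonica rice seedlings, 21 days old. They had stood in darkness before they were turned, and the treatment ran without light or under dim green light. The other 9 arrays read the lower flank at the same times, with 3 arrays each, and whole, uncut shoot bases frozen before the turn (0 h), with 3 arrays. Each array carried RNA pooled from many flank pieces, and whole plants were frozen before they were cut, so both times went through the same cut. Plants held vertical for the same 6 h were not among the arrays analysed here. Time since reorientation, time of day and hours spent in darkness therefore changed together between the 2 times and cannot be told apart.

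Shoots bend against gravity when the lower side elongates faster than the upper side. Sedimenting starch grains sense the direction, auxin is moved to the lower side, and cells there loosen and extend their walls. The circadian clock runs beside this in every cell: LHY acts in the morning, pseudo-response regulators (PRR) follow through the day, and GIGANTEA (GI) acts towards evening. Dividing cells of a shoot base also need the genes that license and copy DNA.

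Signals were on a log2 scale centred so that each array's median was 0, and a difference of 1 is a 2-fold change. Levels cannot be compared between probe sets, only between arrays for 1 probe set. Array medians ran from 17.16 to 29.6 in deposited signal units before centring, and arrays of a group correlated at a mean of 0.954 to 0.979 over the tested probe sets. The replicate 1 arrays of all 5 groups stood apart in a spiked-in control, with deposited signals of 106.6 to 209 there and 16.5 to 26.28 on the others. Shoot base markers ranged widely in level: OSH1, a KNOX gene of the shoot meristem, read 7.44 at 0.5 h and 7.38 at 6 h, and OSH71 read 6.70 and 6.97. The lowest KNOX gene, OSH43, read 1.54 and 0.98. The leaf primordium genes OsYAB1, OsYAB2 and OsYAB5 lay 4.96 or more above the array median at both times. The other leaf primordium genes were lower: OsYAB3 read 1.99 and 1.95, OsYAB7 1.0 and 0.86 and DL 0.06 and 0.54. OsYABBY7, which was not tested, read -1.19 and -1.06. Green tissue genes ran from RBCS1, not tested, at -3.31 and -4.73 to an LHCP gene at 5.13 and 5.40. None of the 6 tested leaf primordium markers changed between the times, and 1 of the 6 meristem and stem markers rose, OSH3. Of 7 seed storage protein genes, 6 lay below the array median at both times, and the only one tested, GLUA2, rose from 2.55 to 3.73. MSP1, an anther gene, fell from 3.56 to 2.41. What part other tissue had in the results was not tested. In such pieces, fewer cells of a type and less RNA per cell cannot be told apart.

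Transcripts differed widely between the 2 times. Of 28629 tested probe sets, 9383, or 32.8%, passed a Benjamini-Hochberg adjusted p of 0.05 in limma. At 6 h, 3969 probe sets (13.9%) were higher and 5414 (18.9%) were lower than at 0.5 h. Rises were thus 42.3% of the calls. An unadjusted p under 0.05 was reached by 12070. The changes were mostly modest, with a median of 1.89-fold among rises and 1.86-fold among falls. A change of at least 2-fold was seen in 1769 rises and 2290 falls, at least 4-fold in 491 and 408, and at least 8-fold in 158 and 84. The largest steps were thus more often rises, although falls were more numerous. The 3 arrays of one time lay wholly above the 3 of the other for 3927 of the rises and 5344 of the falls, and for 49.1% of all tested probe sets. Within a time, the 3 upper-flank arrays had a median SD of 0.196 at 0.5 h and 0.187 at 6 h. Counted once per gene, 15.4% of 15858 tested genes rose and 22.8% fell, with a median log2 difference of -0.07, which is the background for the gene groups below. Without centring of the arrays the median over all probe sets was -0.15 in place of -0.04, and 7385 probe sets were called, 2402 higher and 4983 lower, so that rises were 32.5%.

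The whole shoot bases at 0 h add a level before the turn, although those were not cut. Of the rises, 3401 had a 0 h mean between the 0.5 h and the 6 h means, 416 had one below the 0.5 h mean and 152 one above the 6 h mean. Among the falls the numbers were 4161, 1207 and 46. The 0 h samples were no time control for 6 h.

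Among genes with a name, the 12 largest rises spanned 10.9-fold to 51.9-fold. Their choice required that the arrays of the 2 times do not overlap. GRXC10 (on chromosome 11), a glutaredoxin, one of the small thiol enzymes that reduce disulphides, read 1.25, 1.84 and 2.60 on the 0.5 h arrays and 7.56, 7.63 and 7.59 on the 6 h arrays. Its 6 h arrays agreed closely and lay well clear of the 0.5 h arrays, a rise of 5.70 ± 0.38 (SE, n = 3 arrays a time) or 51.9-fold at a limma adjusted p of 6.06e-07. LIR1, a chloroplast protein known in rice for its induction by light and its daily rhythm, read -0.59, 0.04 and 0.28 at 0.5 h and 5.62, 4.89 and 4.85 at 6 h, a 37.1-fold rise (limma adjusted p = 2.88e-08). The treatment at both times ran in darkness or under dim green light. OsCIPK10, a protein kinase activated by calcium-binding CBL proteins, rose on all 4 of its probe sets, by 4.07 to 5.11 on the log2 scale. On the brightest of them the arrays read 0.62, 0.41 and 0.63 at 0.5 h and 5.34, 5.0 and 5.11 at 6 h, with no overlap. OsWGP1, a BURP-domain protein, was more scattered at 0.5 h, with 1.38, -1.82 and -0.82 at 0.5 h and 4.59, 4.76 and 4.44 at 6 h, and rose 32.3-fold. OsPP2C45, a type 2C protein phosphatase, rose 26.8-fold on one probe set, from 0.04, 0.13 and 1.24 at 0.5 h to 5.11, 5.17 and 5.36 at 6 h. Its second and brighter probe set differed by only 0.28 and did not pass the test, so that the probe sets of OsPP2C45 disagree on the size of its change.

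The remaining large rises included genes of auxin, wall and starch biology. SAUR39, which restrains auxin synthesis and transport in rice, read -1.03, -0.28 and -0.62 at 0.5 h and 3.33, 3.47 and 3.81 at 6 h and rose 18.2-fold (limma adjusted p = 2.74e-06). OsEXLA1, an expansin-like wall protein, read 3.38, 3.26 and 3.04 at 0.5 h and 7.10, 7.10 and 7.10 at 6 h, so that the 3 arrays at 6 h were level with each other and 14.7-fold above 0.5 h. AMY3D, an alpha-amylase that rice cells make when short of sugar, read 0.24, -0.87 and 0.28 at 0.5 h and 3.32, 3.84 and 4.08 at 6 h, a 14.6-fold rise. OsPIN4, an auxin carrier gene also listed as OsPIN5b, rose from -1.02, -3.36 and -1.48 at 0.5 h to 2.24, 1.15 and 1.96 at 6 h. The probe set of OsPIN4 lay below the array median at 0.5 h on all 3 arrays. Further rises were a universal stress protein (Os07g47620, 17.8-fold) and a lichenase, an enzyme that cuts mixed-linkage glucan of grass walls (Os05g31140, 10.9-fold). Genes given here by a locus number have their description from the study's own tables, which were chosen partly by flank differences on these arrays and are no independent evidence. For several of these the 0.5 h signal was near or below the array median, where a fold is imprecise. With 16 added to every signal before the logarithm, the rise was 4.36 for LIR1, 3.98 for OsCIPK10, 3.81 for OsWGP1, 4.09 for OsPP2C45, 3.12 for SAUR39, 3.03 for Os07g47620, 3.01 for AMY3D and 1.97 for OsPIN4 on the log2 scale, each still called.

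**Figure D1:**
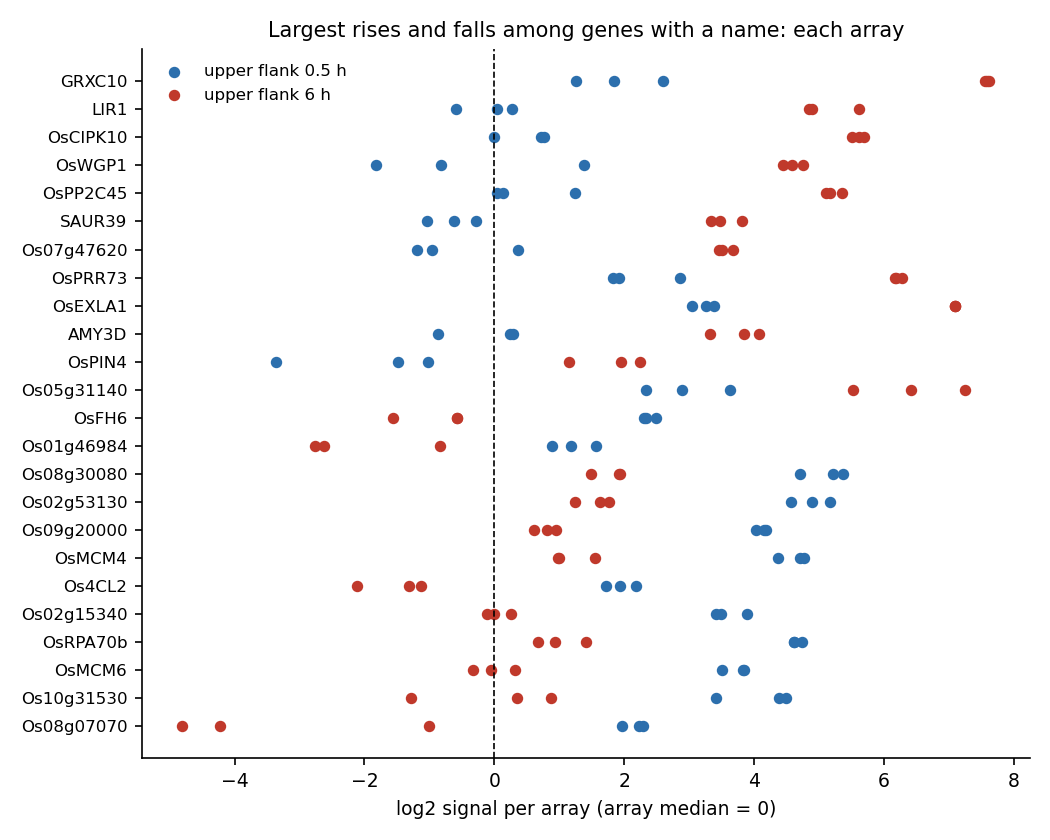
Log2 signal of every upper-flank array at 0.5 h (blue) and 6 h (red) for the 12 largest named rises (upper rows) and the 12 largest named falls (lower rows); the dashed line is the array median. No gene shown has overlapping arrays, which the choice of these genes required, and GRXC10 moved from between 1.25 and 2.60 to between 7.56 and 7.63.

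The helicase that opens DNA for copying gave 2 of the 12 largest named falls, and another was a protein that coats the opened strands. OsMCM6 (on chromosome 5) read 3.51, 3.85 and 3.83 at 0.5 h and -0.32, -0.05 and 0.32 at 6 h, a 13.4-fold fall (limma adjusted p = 4.42e-06). OsRPA70b, the strand-coating protein, read 4.62, 4.62 and 4.74 at 0.5 h and 0.67, 1.42 and 0.94 at 6 h and fell 12.5-fold. OsMCM4 went from 4.37, 4.78 and 4.70 to 1.0, 1.56 and 0.98, a 10.8-fold fall. In all 3 genes every 0.5 h array stood far above every 6 h array, although the choice of the largest named falls required arrays that do not overlap.

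Other large falls came from nitrogen, phenylpropanoid, ethylene and wall genes. A nitrate reductase (Os02g53130), the enzyme that starts nitrate assimilation, read 4.90, 5.17 and 4.57 at 0.5 h and 1.77, 1.63 and 1.25 at 6 h and fell 10.03-fold (limma adjusted p = 8.42e-07). Os4CL2, a 4-coumarate:CoA ligase of the path to lignin and flavonoids, read 1.72, 2.18 and 1.94 at 0.5 h and -2.11, -1.32 and -1.13 at 6 h and fell 11.1-fold. An ACC oxidase (Os08g30080), the last enzyme of ethylene synthesis, fell 9.97-fold, from 4.70, 5.22 and 5.37 at 0.5 h to 1.93, 1.93 and 1.49 at 6 h. The steepest of the falls was Os08g07070, described only as an expressed protein, which went from 2.23, 1.97 and 2.29 at 0.5 h to -1.01, -4.22 and -4.81 at 6 h. The NAC-domain gene Os02g15340 fell 11.7-fold and OsFH6, a formin that nucleates actin filaments, 9.76-fold. A glycine-rich wall protein (Os10g31530) read 3.42, 4.39 and 4.49 at 0.5 h and -1.29, 0.35 and 0.88 at 6 h. That gene's fall, -4.12 ± 1.06 (SE), had the widest error of the 12, and the call was lost without the replicate 1 arrays of every group (limma adjusted p = 0.0586). Where the 6 h signal was below the array median the fall is imprecise: with 16 added to the signals it was -2.43 for Os08g07070, -3.32 for Os10g31530, -3.01 for OsMCM6, -2.85 for Os02g15340, -2.04 for Os4CL2 and -2.19 for OsFH6 on the log2 scale. The second probe set of OsFH6 fell by 0.83. The other named falls were Os09g20000, a metal ion binding protein, and Os01g46984, an expressed protein, at -3.34 and -3.29, the latter -1.53 with 16 added.

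Nearly all clock genes were higher at 6 h. Of 7 annotated genes 6 were tested, 5 rose and none fell, with a median log2 difference of 1.44 against -0.07 over all genes. OsPRR73 (on chromosome 3) read 1.92, 1.82 and 2.86 on the 0.5 h arrays and 6.19, 6.28 and 6.17 on the 6 h arrays. No array of one time came near the other time, and the gene rose 16.1-fold (limma adjusted p = 1.11e-05). OsPRR95 read 3.60, 3.70 and 3.78 at 0.5 h and 6.41, 6.16 and 6.16 at 6 h, a 5.84-fold rise with little spread at either time. GI read 2.20, 1.99 and 2.39 at 0.5 h and 4.71, 3.79 and 3.90 at 6 h and rose 3.83-fold. OsPRR37 read 2.85, 2.88 and 2.92 at 0.5 h and 3.76, 3.82 and 3.92 at 6 h, which was 1.94-fold, and the fit gave a limma adjusted p of 0.00448. OsPRR1, the rice counterpart of TOC1, read 2.76, 3.01 and 2.74 at 0.5 h and 3.35, 3.36 and 3.41 at 6 h and rose 1.45-fold, a call that was lost without array centring and without the replicate 1 arrays. OsLHY, the morning repressor, was at 7.91, 8.0 and 7.93 at 0.5 h and 7.70, 7.70 and 7.59 at 6 h. Its difference, -0.28 ± 0.11 (SE), did not pass the test (limma adjusted p = 0.073), although its arrays did not overlap. It was called lower in 5 of 25 alternative fits, among them quantile scaling and log2(signal + 16). At 0 h OsPRR73 and OsPRR95 averaged 2.18 and 3.64, close to their 0.5 h values, whereas GI averaged 3.0, above all 3 of its 0.5 h arrays and below all 3 of its 6 h arrays.

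**Figure D2:**
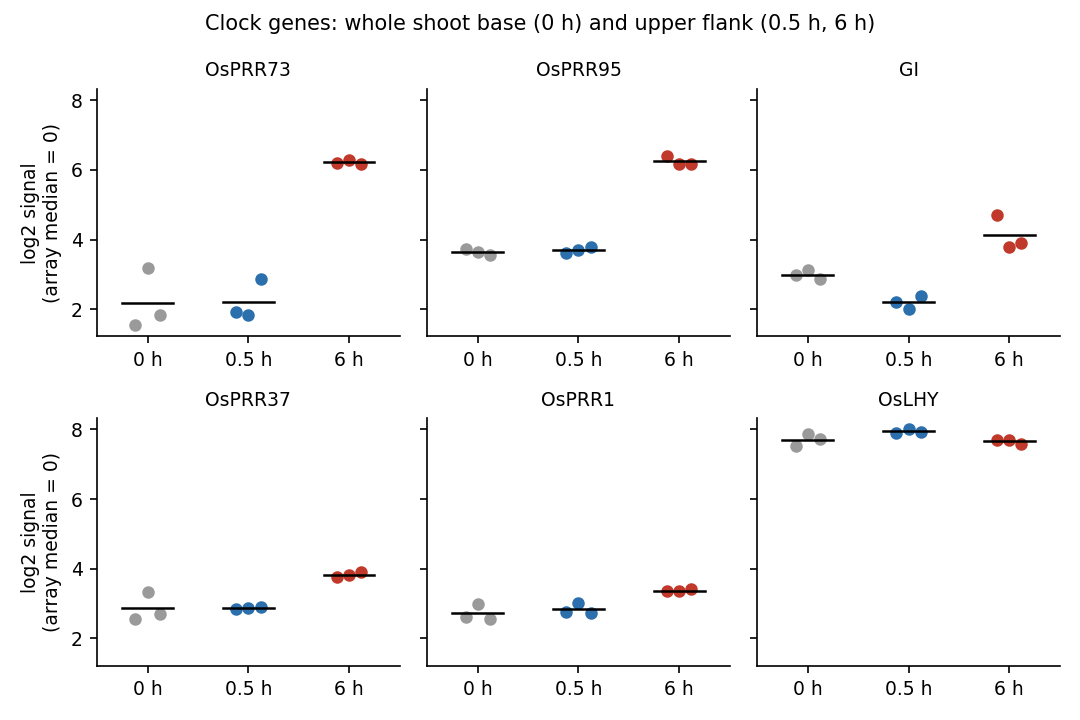
Log2 signal (array median at 0) of the 6 tested clock genes in whole shoot bases at 0 h and at 0.5 h or 6 h in the upper flank; points are single arrays and lines the mean of 3. OsPRR73, OsPRR95, GI, OsPRR37 and OsPRR1 are higher on every 6 h array than on any 0.5 h array, and OsLHY is lower.

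The second clock probe sets agreed in sign with the first, since OsPRR73 rose by 2.91 on its other probe set and OsPRR37 by 0.98. Of 6 light receptor and signalling genes 4 rose and 1 fell. All 3 phytochromes, the red-light receptors PHYA, PhyB and phyC, rose by 0.51 to 0.60 on the log2 scale, and PHOT1A, a blue-light receptor of phototropism, by 1.26. PHYA read 6.97, 7.29 and 7.26 at 0.5 h and 7.69, 7.88 and 7.75 at 6 h. CRYD, annotated as a cryptochrome, fell by 0.84. Without array centring PhyB and phyC lost their calls. Among genes of flowering time, SE5, which makes the phytochrome chromophore, rose 1.84-fold, and OsMFT1 4.72-fold from 0.02, 0.47 and 0.15 at 0.5 h to 2.02, 2.34 and 2.99 at 6 h. Photosynthesis genes did not follow LIR1: none of 7 tested rose, and 2 fell, PSB28 by 1.38 and one LHCP gene by 0.97. The LHCP call was lost in 14 of 24 alternative fits. It was lost without any single upper-flank array other than 0.5 h replicate 1, without lower flank 0.5 h replicate 2 or 3, without any single lower-flank array at 6 h and without whole shoot base replicate 3.

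DNA replication genes fell as a group. Of 28 annotated genes 27 were tested, 20 fell and none rose, 74.1% against 22.8% of all genes, with a median log2 difference of -0.83. All 7 tested MCM genes fell, 1.44-fold to 13.4-fold. They code for the helicase that unwinds DNA at origins. All 5 genes of the origin recognition complex fell too, 1.4-fold to 3.47-fold, the largest being OsORC3 at -1.79 on the log2 scale and OsORC5 at -1.74. OsPCNA, the sliding clamp of the DNA polymerases, read 5.64, 5.87 and 5.93 at 0.5 h and 3.77, 3.90 and 3.55 at 6 h, a 4.22-fold fall (limma adjusted p = 9.66e-06). The single-strand binding proteins were split: 4 of 7 RPA genes fell, among them OsRPA70b and OsRPA32, at -3.65 and -2.57, whereas OsRPA70a stood at 0.01 and OsRPA32B at 0.24 and neither passed. The clamp loader moved least, with 2 of 5 RFC genes lower, at -1.04 for OsRFC5 and -0.55 for OsRFC3.

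Cell cycle regulators changed in part. Of 39 tested cyclins, cyclin-dependent kinases and their inhibitors, 16 fell and 6 rose, 41.0% and 15.4%. The D-type cyclins, which drive entry into the cycle, accounted for 7 of the falls among 9 tested and none of the rises. CYCD3-2 read 4.54, 4.65 and 4.46 at 0.5 h and 2.83, 2.0 and 1.58 at 6 h and fell 5.32-fold, and CYCD6-1 and CYCD2-2 fell 2.98-fold and 2.38-fold. Of 7 A-type and B-type cyclins 4 fell, with differences from -1.16 to 0.38 over the 7. CDKB;2, a kinase of mitosis, fell by 1.29, and CDC2-2 by 0.98. KRP6, an inhibitor of the cell cycle kinases, rose by 1.34, and CDKF-3 by 0.85. The tested histone gene, OsH2B, fell by 0.57, a call lost without array centring and without the replicate 1 arrays of every group.

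Cellulose synthases fell almost without exception, by small steps. Of 9 tested genes 8 fell and none rose, 88.9%, with a median log2 difference of -0.93. OsCesA6, of the primary wall, read 7.26, 7.50 and 7.45 at 0.5 h and 6.33, 6.52 and 6.34 at 6 h, 2.01-fold lower at a limma adjusted p of 2.87e-05. OsCesA5 read 7.34, 7.52 and 7.45 at 0.5 h and 6.58, 6.59 and 6.34 at 6 h and OsCesA8 7.13, 7.10 and 7.08 at 0.5 h and 6.28, 6.33 and 6.05 at 6 h, with tight arrays and falls of 1.91-fold and 1.84-fold. OsCesA4, OsCesA7 and OsCesA9, which build the secondary wall in rice, fell 2.25-fold to 2.55-fold. OsCesA2 stood at -0.17 and did not pass.

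Genes for other wall polymers went both ways. Of 16 tested cellulose-synthase-like genes 8 fell and 4 rose. The 2 CslF genes, of the family that makes mixed-linkage glucan, both fell, OsCslF8 5.51-fold from 3.80, 3.67 and 3.60 at 0.5 h to 1.43, 1.56 and 0.70 at 6 h and OsCslF6 by 1.76 on the log2 scale. Of 5 CslC genes, the xyloglucan backbone family, 4 fell, among them OsCslC3 3.99-fold and OsCslC7 2.30-fold. The rises were OsCslA9, OsCslA5, OsCslH1 and OsCslE1, by 0.62 to 0.91. Of 10 genes of UDP-sugar synthesis 5 fell and 2 rose, and neither rise was called without array centring or without the replicate 1 arrays of every group. All 3 UDP-glucose dehydrogenase genes, which feed xylan and pectin synthesis, fell, from 0.75 for Os-UGD5 to 1.32 for Os-UGD4. Os-UGD4 read 7.65, 7.86 and 7.95 at 0.5 h and 6.32, 6.69 and 6.50 at 6 h.

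**Figure D3:**
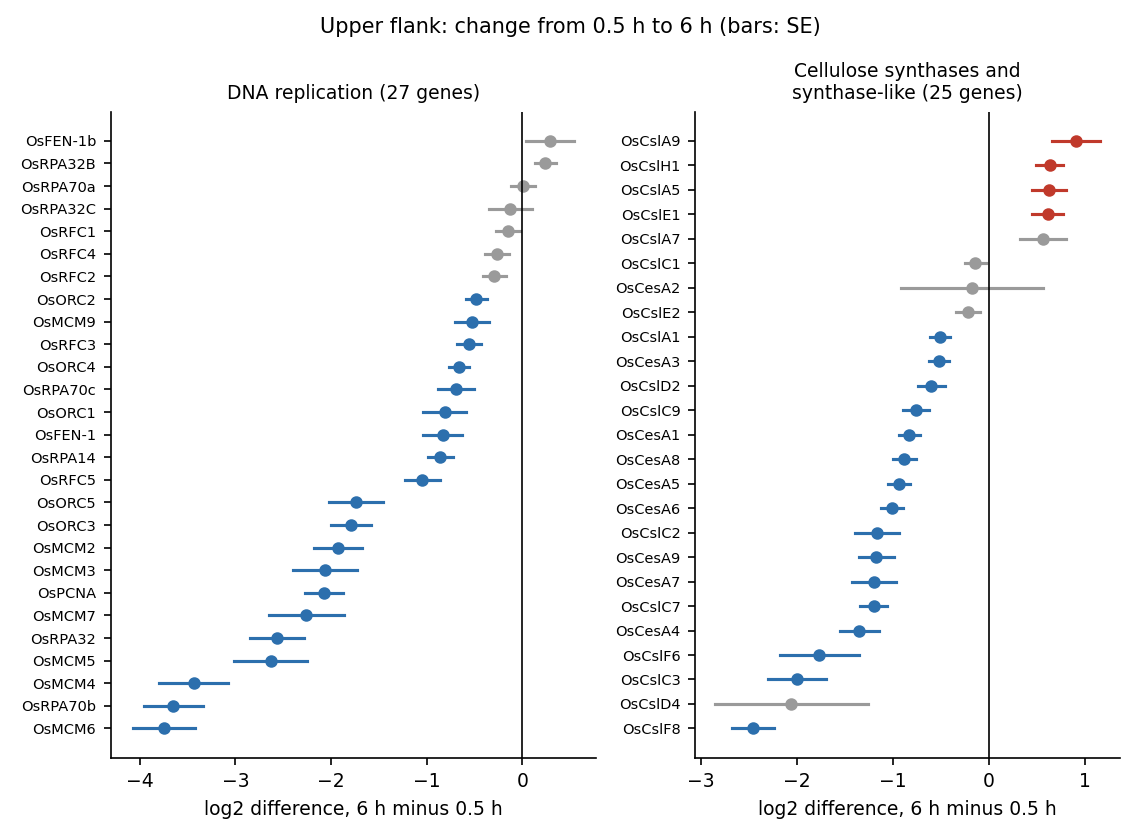
Log2 difference, 6 h minus 0.5 h, with its SE (bars) for every tested gene of DNA replication (left) and of the cellulose synthase and synthase-like families (right); blue genes were called lower, red ones higher and grey ones were not called. All 7 MCM, all 5 ORC and all 9 CesA genes lie left of 0, and OsCesA2 is the only one of these in grey.

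Expansins, which loosen walls, were mostly lower or not called. Of 10 tested alpha-expansins 5 fell and 1 rose, and of 9 beta-expansins 3 fell and none rose. OsEXP5 read 5.55, 5.55 and 5.40 at 0.5 h and 3.57, 3.07 and 2.92 at 6 h, a 4.98-fold fall (limma adjusted p = 9.7e-06). OsEXPB17 fell 4.62-fold and OsEXPB11 2.57-fold, the latter from 7.73, 7.56 and 7.81 at 0.5 h to 6.49, 6.49 and 6.03 at 6 h. The exception was OsEXP1, which rose 5.08-fold, from 3.84, 4.11 and 4.59 at 0.5 h to 6.57, 6.40 and 6.61 at 6 h. Lignin and phenylpropanoid genes fell in 7 of 19 cases and rose in 2. OsCAD3 and OsCAD6, annotated as cinnamyl alcohol dehydrogenases, fell 4.13-fold and 3.97-fold, and OsCAD8C rose 2.42-fold.

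Auxin genes fell more often than they rose. Of 25 tested Aux/IAA genes, which code for repressors that auxin removes and also induces, 12 fell and 4 rose, with a median of -0.40. IAA2 read 5.82, 5.91 and 5.77 at 0.5 h and 7.87, 7.89 and 7.74 at 6 h and rose 4.0-fold with hardly any spread (limma adjusted p = 2.61e-07). IAA4 read 2.32, 2.63 and 2.75 at 0.5 h and -0.67, 0.21 and -0.08 at 6 h and fell 6.71-fold, or by 2.02 on the log2 scale with 16 added to the signals, and IAA20 fell by 2.40 on the log2 scale. IAA25 and IAA23 fell 2.26-fold and 2.57-fold. Of 16 auxin response factors, the transcription factors that these repressors hold, 8 fell and 2 rose. ARF10 fell 7.0-fold, from 4.35, 4.69 and 4.59 at 0.5 h to 1.24, 2.11 and 1.85 at 6 h, whereas ARF17 rose 1.79-fold. Both tested auxin synthesis genes were lower, OsTAR2 by 1.34 and OsYUCCA1 by 0.88. Only 1 of the 2 was called with 16 added to the signals, and only 1 without the replicate 1 arrays of every group. Among 5 auxin efflux carriers OsPIN4 was the only rise, and 3 fell: OsPIN5, also listed as OsPIN9, 3.22-fold, OsPIN2 2.18-fold and OsPIN3a 1.64-fold, the last not called without array centring (limma adjusted p = 0.0556). The call for OsPIN2 was lost without any single upper-flank array at 0.5 h, without replicate 1 or 2 at 6 h and after quantile scaling. Of 9 GH3 genes, whose enzymes join auxin or jasmonate to amino acids, 4 fell and 1 rose. OsJAR1, the one for jasmonate, fell 3.24-fold, from 4.63, 4.28 and 4.29 at 0.5 h to 2.79, 2.63 and 2.68 at 6 h.

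Brassinosteroid genes were lower in 7 of 13 cases and higher in 1. The 3 tested BZR transcription factors of the pathway fell, by 0.51 to 1.09, as did the receptor gene OsBRI1 by 0.44 and its partner OsBAK1 by 0.47. CYP734A6, which inactivates brassinosteroids, read 5.18, 5.16 and 5.28 at 0.5 h and 3.97, 3.92 and 4.05 at 6 h and fell 2.34-fold (limma adjusted p = 1.6e-05). OsBU1, a small helix-loop-helix protein that promotes brassinosteroid-dependent leaf bending in rice, was the rise, at 4.04-fold from 2.53, 1.74 and 2.80 at 0.5 h to 4.39, 4.44 and 4.30 at 6 h.

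The cytokinin list was split, with 9 rises and 6 falls among 27. OsCKX11, an enzyme that breaks cytokinin down, rose 3.03-fold, and LOGL3, of the family that releases active cytokinin, 2.88-fold. In all, 4 of 8 LOG-family genes rose and none fell. OsRR1, a response regulator, read 3.53, 4.62 and 4.30 at 0.5 h and 1.29, 1.78 and 1.43 at 6 h and fell 6.28-fold. The ethylene list had 2 rises and 2 falls among 10, 20% each, which was near the background over all genes. OsETR2, a receptor, rose 3.30-fold from 4.67, 4.67 and 4.91 at 0.5 h to 6.32, 6.62 and 6.48 at 6 h. OsEIL1b, a transcription factor of the pathway, fell 4.15-fold from 3.91, 4.18 and 4.09 at 0.5 h to 1.86, 2.14 and 2.02 at 6 h. Of 11 gibberellin genes, the receptor gid1 and the synthesis gene OsKO1 rose, 1.77-fold and 1.94-fold, and none fell. The jasmonate list, with 4 rises and 3 falls among 29, stood near or under the background, and its largest rise, OsJAMyb, went from 1.27, 1.35 and 0.74 at 0.5 h to 3.45, 3.87 and 4.65 at 6 h.

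The abscisic acid list included strong rises and falls. Of 67 tested genes 17 rose and 12 fell, 25.4% and 17.9%. Most of the list, 52 genes, were type 2C phosphatases taken by name. They made up 12 of the rises and 10 of the falls. Whether each of them acts in the abscisic acid pathway was not checked, so the counts describe mainly this family. OsPP2C11 read 4.04, 4.11 and 3.99 at 0.5 h and 6.16, 6.23 and 6.15 at 6 h and rose 4.37-fold, and OsPP2C39 and OsPP2C02 rose 2.53-fold and 3.0-fold. Their arrays did not overlap and their limma adjusted p were between 2.47e-06 and 7.37e-06. OsSAPK9, a kinase of the pathway, fell 2.63-fold, and the receptor gene OsPYL5 rose by 1.32.

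Single genes of carbon supply had large changes, whereas their lists were small or near the background of 15.4% rises and 22.8% falls over all genes. Among 15 sucrose synthases, invertases and related genes 3 rose and 3 fell, 20% each, which was near the background. The counts were 3 and 4 among 12 sugar transporters (25% and 33.3%) and 1 and 2 among 5 trehalose genes (20% and 40%). Among 3 starch breakdown genes 2 rose and none fell. OsTPP7, a trehalose-6-phosphate phosphatase, read 3.92, 4.28 and 4.58 at 0.5 h and 7.19, 7.22 and 7.12 at 6 h and rose 7.55-fold (limma adjusted p = 5.7e-07), while OsTPP4 and OsTPP2 fell 2.70-fold and 4.14-fold. The sucrose synthase OsSUS4 read 2.66, 2.63 and 2.56 at 0.5 h and 5.23, 5.26 and 5.07 at 6 h and rose 5.94-fold. Its arrays were tight at both times. The amylase genes AMY3D and amy2A rose, by 3.86 and 2.66 on the log2 scale. OsMYBS1, a MYB factor that switches on alpha-amylase genes under sugar shortage in rice, rose 4.08-fold from 1.87, 2.71 and 2.46 at 0.5 h to 4.08, 4.63 and 4.41 at 6 h. OsMYBS3, which opposes it, rose 1.60-fold, a call lost without array centring. Starch synthesis genes fell in 2 of 5 cases and rose in none, SBE by 0.63 and OsAPS2 by 0.63, calls that were lost without array centring and, for OsAPS2, without upper flank 6 h replicate 3. The phloem sucrose transporter gene OsSUT1 rose 2.17-fold, and the sugar transporter gene OsSWEET2b fell on both of its probe sets, by 2.10 on the log2 scale on each. The cell wall invertases OsCIN1 and OsCIN2 fell 2.40-fold and 2.47-fold.

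Nitrogen genes fell in 6 of 15 cases and rose in 1. NIA1, a nitrate reductase, read 5.10, 5.51 and 4.86 at 0.5 h and 3.08, 3.12 and 2.47 at 6 h and fell 4.79-fold. The nitrate transporter gene NRT2.3 fell 3.25-fold, the ammonium transporter gene OsAMT1;2 2.31-fold and the plastid glutamine synthetase OsGS2 by 1.31. OsGDH2, a glutamate dehydrogenase, which can release ammonium from glutamate, was the rise, at 4.74-fold from 4.06, 3.99 and 4.07 at 0.5 h to 5.92, 6.20 and 6.73 at 6 h. All 3 of its probe sets rose. The median of the list, -0.43, was 0.09 without the replicate 1 arrays. All 3 tested APG8 genes, which mark the membranes of autophagy, rose by 0.46 to 0.51, and their calls were lost without array centring. APG8B also lost it without upper flank 0.5 h replicate 1, and APG8D without 0.5 h replicate 2 or 3, and both without 6 h replicate 1 or 2.

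Water and ion transport genes came next. Of 20 tested aquaporins 8 rose and 1 fell, against 4 and none without array centring and 5 and none without the replicate 1 arrays of every group. OsPIP2;5, a water channel of the plasma membrane, read 5.62, 5.49 and 5.56 at 0.5 h and 7.65, 7.62 and 7.51 at 6 h and rose 4.09-fold (limma adjusted p = 4.24e-07). OsPIP2;2 rose 2.18-fold and the vacuolar channel gene OsTIP2;2 1.80-fold. In the potassium and phosphate list, OsPT6, a phosphate transporter, read 3.82, 3.19 and 4.42 at 0.5 h and 0.17, 0.94 and 0.47 at 6 h and fell 9.75-fold, the largest fall of its list. OsHAK7, a potassium transporter, rose 3.70-fold, from 4.79, 4.99 and 4.72 at 0.5 h to 6.70, 6.78 and 6.67 at 6 h, and OsHAK16 fell 3.12-fold. Of 18 HAK genes 6 rose and 6 fell.

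Calcium sensors were near the background as a list, and single sensors and kinases moved in both directions. Of 47 sensors 12 fell and 9 rose, 25.5% and 19.1% against 22.8% and 15.4% of all genes. The calmodulin-like genes CML17 and CML16 fell 6.87-fold and 4.66-fold, CML17 from 3.20, 3.28 and 3.57 at 0.5 h to 0.54, 0.65 and 0.53 at 6 h. CBL4 fell 3.82-fold. Of 21 CIPK kinases 5 rose and 5 fell, 23.8% each. Beside OsCIPK10, OsCIPK14 rose 5.84-fold from 3.54, 3.44 and 4.20 at 0.5 h to 6.29, 5.92 and 6.61 at 6 h, and OsCIPK25 fell 3.11-fold. OsCIPK06 fell by 1.0 on the log2 scale.

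Among transcription factors and stress genes, the MYB list had 5 rises and no fall among 10, and the bZIP list 7 rises and 3 falls among 18. The background over all genes was 15.4% rises and 22.8% falls. OsNAC6, a stress-induced factor, rose 5.70-fold from 3.67, 3.28 and 3.48 at 0.5 h to 5.84, 6.0 and 6.12 at 6 h on 1 of 2 probe sets, and the other probe set stood at 1.05 and did not pass. ERF24 rose 7.75-fold, from 1.62, 1.01 and 2.10 at 0.5 h to 4.47, 4.68 and 4.45 at 6 h. Homeobox genes were near the background, with 5 rises and 8 falls among 42. OsHox2 fell 2.70-fold, from 4.47, 4.97 and 5.09 at 0.5 h to 3.34, 3.54 and 3.36 at 6 h. None of 5 WRKY genes was called. Heat shock factors were near the background, with 4 rises and 3 falls among 17, 23.5% and 17.6%. The remaining families had few calls: 2 rises and 1 fall among 10 bHLH genes, 2 and none among 7 NAC genes, 2 and 1 among 8 AP2/ERF genes, 1 and none among 12 MADS genes, 1 and 1 among 4 Dof genes, none and 1 among 4 GATA genes and none and 2 among 7 TCP genes. The small heat shock gene OsHsp17.9A read 4.85, 5.0 and 5.14 at 0.5 h and 7.29, 7.30 and 7.35 at 6 h and rose 4.98-fold. The 10 heat shock proteins together had 2 rises and 2 falls, 20% each, which was near the background. Of 6 glutathione transferases 1 rose and 1 fell, GST-I, 5.97-fold. Proteasome genes fell in 8 of 19 cases and rose in none, each by 0.34 to 0.72, and without array centring 3 fell. Ribosomal protein genes fell in 6 of 25 cases, 24%, which was near the background. Without array centring 2 fell, and without the replicate 1 arrays of every group 3. Of the 25, 1 rose, RPL18 by 0.68, a call lost without upper flank 0.5 h replicate 1 or 6 h replicate 2.

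**Figure D4:**
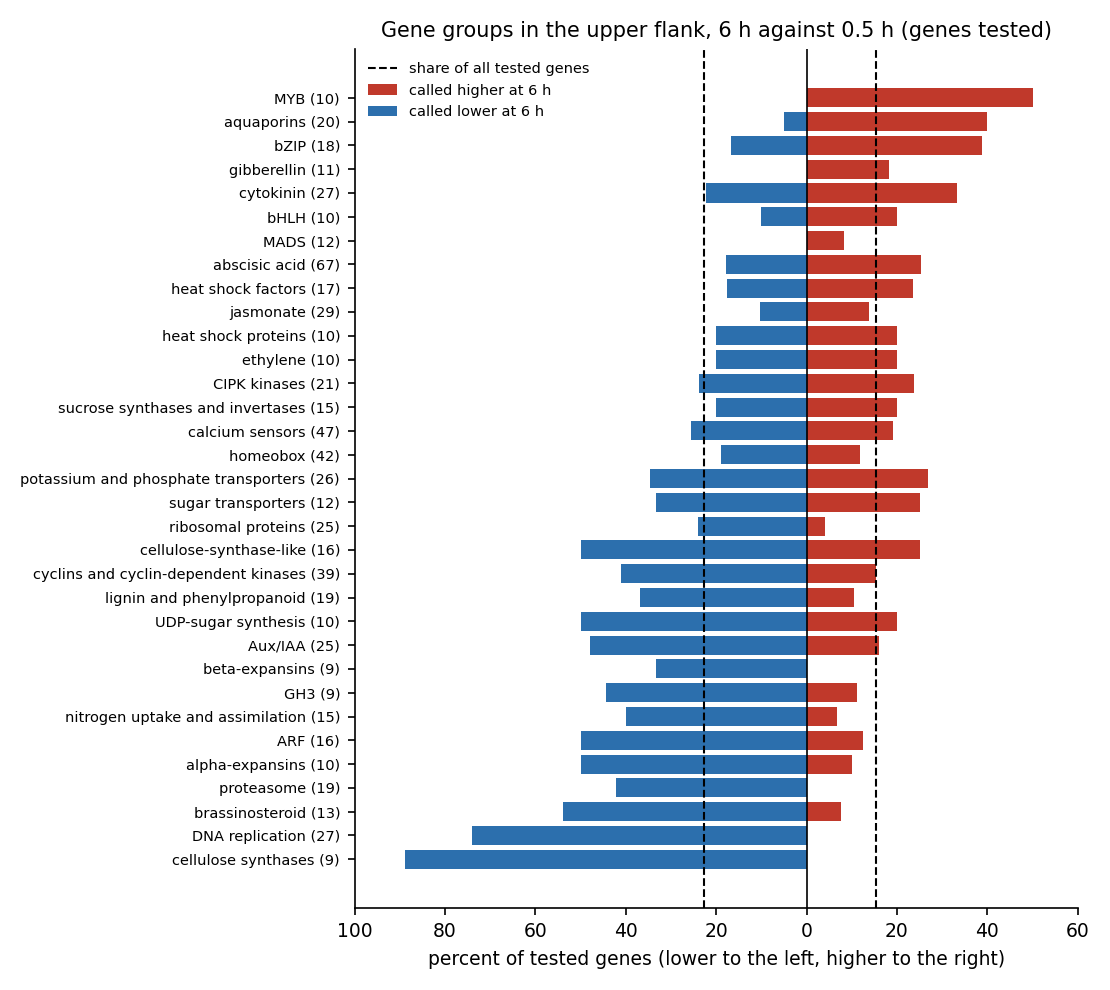
Percent of the tested genes of each list called lower (blue, to the left) or higher (red, to the right) in the upper flank at 6 h against 0.5 h, for lists with 9 or more tested genes (number in parentheses); dashed lines are the shares over all 15858 tested genes, 22.8% lower and 15.4% higher. Cellulose synthases (88.9% lower) and DNA replication (74.1% lower) stand farthest to the left.

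Without array centring fewer rises were called in several further lists: 4 in place of 9 among calcium sensors, 2 in place of 7 among potassium and phosphate transporters, 3 in place of 6 among cyclins and their kinases, 3 in place of 5 in the MYB and in the homeobox list, 2 in place of 4 among cellulose-synthase-like, light receptor and jasmonate genes, and 1 in place of 4 among heat shock factors. Quantile scaling gave 7 for heat shock factors.

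The lower flank passed through the same hours and shares no array with the upper flank comparison. There, 6951 probe sets (24.3%) changed, 3080 higher (10.8%) and 3871 lower (13.5%). Without array centring 8371 changed, and 16.4% of them were higher in place of 44.3%. With 16 added to the signals it was 31.3%. Of the upper-flank rises 2530 (63.7%) were also called higher in the lower flank and 2 were called lower. Of the falls 3230 (59.7%) were also called lower and 47 higher. Called or not, 98.0% of the rises and 95.4% of the falls had the same direction in the lower flank. The larger changes were more often called in both flanks, with 93.5% of the rises and 91.2% of the falls of at least 4-fold called the same way. OsPRR73 changed by 3.84 on the log2 scale in the lower flank against 4.01 in the upper, OsMCM6 by -3.51 against -3.75, and OsCIPK10 by 4.54 against 4.60. DNA replication had 21 falls and a median of -0.88 in the lower flank, and the clock list 5 rises and a median of 1.57. The change was not called different between flanks for any clock or DNA replication gene.

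The change over time differed between the flanks for 156 probe sets (0.545%) by a test of the difference itself. The upper flank changed more upward in 14 (0.0489%) and more downward in 142 (0.496%). With each pair of flank arrays of one time and replicate number kept as a block the count was 297. It was 26 without array centring, where 23.1% had the upper flank changed more upward in place of 8.97%, and 17 without the replicate 1 arrays of every group. It was 95 and 89 without upper flank 0.5 h replicates 2 and 3, 98, 100 and 99 without lower flank 0.5 h replicates 1, 2 and 3, 100 without upper flank 6 h replicate 3 and 83 without lower flank 6 h replicate 2. Of the 156, 42 fell in the upper flank and rose in the lower, 45 fell in the upper and were not called in the lower, and 34 were not called in the upper and rose in the lower.

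Named genes of this set included auxin response, homeobox, sugar and wall genes. Os06g44320, an expressed protein, had the widest gap among them, -6.29 or, with 16 added to the signals, -4.30, at 1.02 in the upper and 7.30 in the lower flank, and OsBU1 differed by 2.02 and 4.71. IAA20 fell in the upper flank by 2.40 and differed by 2.78 in the lower (limma adjusted p of the difference = 0.00216). Its upper-flank arrays read 0.80, 0.21 and 0.87 at 0.5 h and -1.77, -2.91 and -0.63 at 6 h, below the array median at 6 h, and its difference between flanks ran from -5.74 to -3.24 over the alternative fits. OsWOX11, which activates crown root emergence in rice, was at 4.52, 4.14 and 4.68 at 0.5 h and 4.35, 4.16 and 4.16 at 6 h in the upper flank, without a call, and rose by 2.75 in the lower (limma adjusted p of the difference = 0.000125). OsWOX6 behaved alike, with -0.08 and 2.87. IAA12 and IAA13 fell by 0.56 and 0.56 in the upper flank and stood at 0.99 and 0.84 in the lower. OsTAR2 and OsSWEET11 likewise had opposite signs, -1.34 against 0.43 and -1.83 against 1.82. OsEXPB11 and OsUGE-2, of wall loosening and sugar nucleotide synthesis, changed by -1.36 and -0.94 in the upper flank and by -0.03 and 0.34 in the lower. OsPIP2;5 was of the opposite kind: it rose by 2.03 in the upper flank and stood at 0.10 in the lower (limma adjusted p of the difference = 0.000345). OsWOX11, OsWOX6 and OsPIP2;5 kept the call for the difference in all 26 alternative fits. IAA20 and OsSWEET11 lost it without the replicate 1 arrays of every group, and OsBU1, IAA12, IAA13, OsTAR2, OsEXPB11 and OsUGE-2 there and without array centring. OsEXPB11 and OsUGE-2 also lost it without the filter on dim probe sets. The cellulose synthase list had 5 falls and a median of -0.36 in the lower flank against 8 and -0.93 in the upper, but no single CesA gene was called different between the flanks. The 25 Aux/IAA genes had 9 rises and 4 falls in the lower flank against 4 and 12 in the upper.

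**Figure D5:**
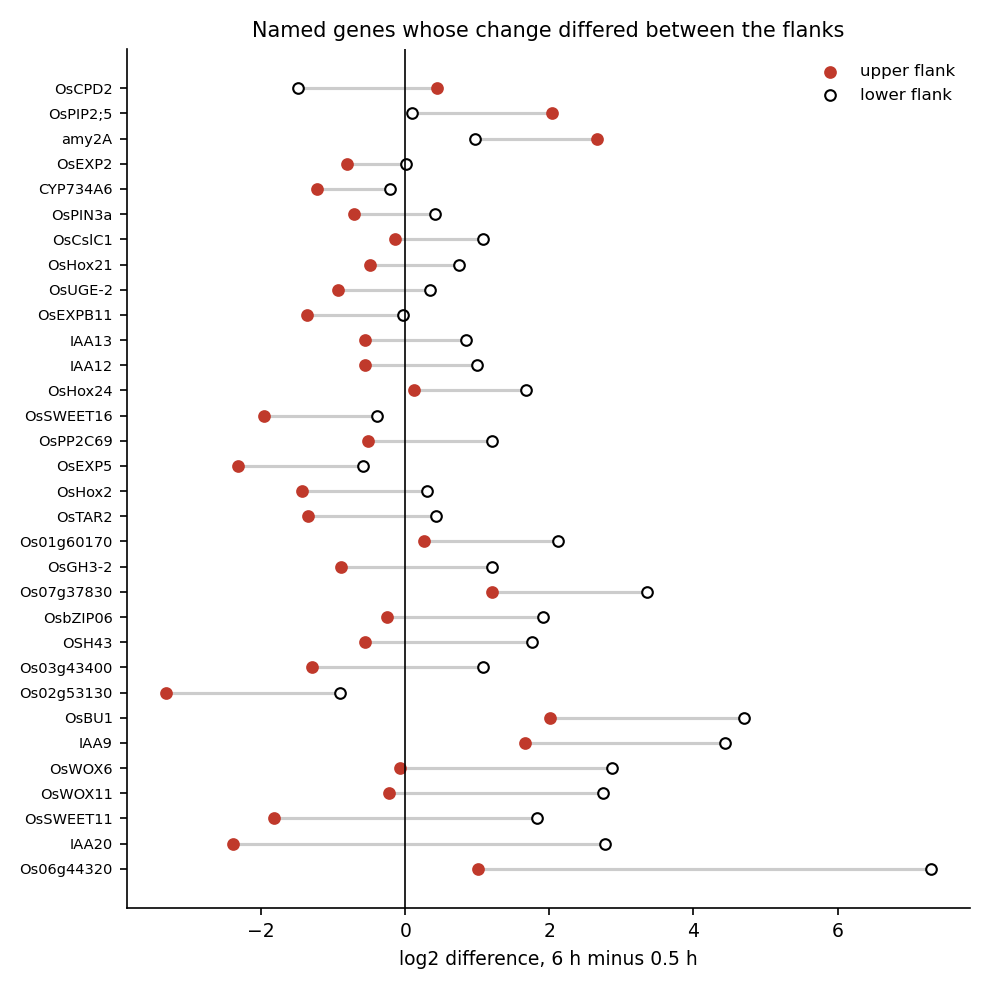
Log2 difference, 6 h minus 0.5 h, in the upper flank (filled red) and the lower flank (open) for the named genes and list members whose change was called different between the flanks, ordered by that difference. IAA20, OsSWEET11 and OsTAR2 lie left of 0 in the upper and right of 0 in the lower flank, and OsPIP2;5 is among the 3 genes at the top, whose upper-flank value is the higher one.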

How the data were processed

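RNA of 15 pooled samples was read on Affymetrix rice arrays after 2 rounds of amplification. The deposited values are linear signal intensities from GCOS (the MAS5 algorithm), which the authors ran array by array. The sources used here give no scaling target, and the authors' own later centring per chip and gene is not in the deposited values. Intensities were taken to log2 and centred on each array's median. The 123 control probe sets among 57381 were set aside, and the 50% with the highest mean over all arrays were tested (28629), a filter that looks at no group. Limma 3.58.1 in R 4.3.3 fitted 1 mean per group over 15 arrays (residual degrees of freedom 10, prior 2.67), with Benjamini-Hochberg adjustment per comparison and calls at 0.05. The code was tested on simulated data.

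Replicates are separate pools, and p-values measure the spread between their arrays. The main fit held no term for the replicate number, so any offset shared by same-numbered arrays counts in that spread. The number of arrays limits the precision, and detection calls were not used. Genes were named from probe annotation by symbol or synonym, and 1158 tested probe sets also had a description in the study's own tables, which were drawn up partly on these samples. A list counts each gene once, by its brightest probe set that names it alone, and 2206 of 15858 tested genes had a symbol. Named genes were the 12 largest named rises and falls with arrays that do not overlap and a level of at least 1 at the higher time, all clock genes, up to 4 called members with the lowest adjusted p per list of at least 5 tested genes, and the 6 with the lowest adjusted p for the difference between flanks. Other list members given in the text were chosen after their values were seen. The members and lists were chosen with earlier results of these data known. Deviations of same-numbered upper-flank arrays correlated at 0.298, 0.175 and 0.0981 between the times, so those arrays were not treated as pairs. Flank arrays of one time and number correlated at 0.224 to 0.499, and the block value is given for the difference between flanks. Alternatives changed the centring, filter, log scale, arrays fitted, variance model and block, and left out arrays. Promoter sequences were not analysed here.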

Additional observations from a re-analysis of the deposited data

Results flagged for a closer look

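Groups of 3 arrays are too small for a test of single outlying arrays, so what marked a result here was a change over time that differed between the upper and the lower flank by a test of the difference itself. This held for 156 probe sets in limma. The values below are log2 differences of the 2 changes, upper minus lower flank, for genes named in the Results or on the lists there. A negative value means that the upper flank fell more or rose less.

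Among auxin genes the difference was -5.17 for IAA20, -2.77 for IAA9, -2.38 for Os03g43400, described as an Aux/IAA gene, -1.55 for IAA12 and -1.40 for IAA1, also listed as IAA13. It was -2.09 for OsGH3-2, -1.77 for OsTAR2 and -1.13 for OsPIN3a. Among homeobox genes it was -2.97 for OsWOX11, -2.94 for OsWOX6, -2.32 for OSH43, -1.73 for OsHox2, -1.56 for OsHox24 and -1.24 for OsHox21. Among wall genes it was -1.73 for OsEXP5, -0.83 for OsEXP2, -1.33 for OsEXPB11, -1.28 for OsUGE-2 and -1.21 for OsCslC1. Among sugar genes it was -3.65 for OsSWEET11, -1.57 for OsSWEET16 and 1.69 for amy2A. In the brassinosteroid list OsBU1 stood at -2.69, CYP734A6 at -1.01 and OsCPD2 at 1.93. The others were Os06g44320 at -6.29, the nitrate reductase Os02g53130 at -2.42, OsbZIP06 at -2.15, Os07g37830 at -2.14, Os01g60170 at -1.86, OsPP2C69 at -1.72 and OsPIP2;5 at 1.93.

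The sign of each was the same in every alternative fit. The value moved by over 1.5-fold in some of them for 3: it ran from -6.61 to -4.30 for Os06g44320, from -5.74 to -3.24 for IAA20 and from -1.78 to -0.87 for OsSWEET16. Os06g44320, Os07g37830, OsWOX11, OsWOX6 and OsPIP2;5 also kept the call in every one. Single arrays left out one at a time ended the call in 9 or more of 15 fits for IAA9, OsGH3-2, OsEXP5, OsSWEET16, OsHox21, OsPIN3a, CYP734A6, OsEXP2 and amy2A. For OsPP2C69 it ended in 4: without upper flank 0.5 h replicate 2, lower flank 0.5 h replicate 1 or 3, or lower flank 6 h replicate 2. The cause was not tested.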

How the results depend on the processing

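No upper-flank call became a call in the opposite direction under any alternative. Of the single-gene values 4405 kept their call or lack of one, 159 lost a call and 5 gained one. The 9383 calls of the upper flank became 7385 without centring, 10126 with quantile scaling, 7058 without the filter on dim probe sets, 6110 in the brightest 25% (fewer probe sets tested), 10085 with log2(signal + 16), 9505 on the 6 arrays alone and 9656 with an intensity trend. They ran from 7314 to 9765 with single arrays left out, and 57.5% to 99.5% of the calls were kept over these settings. Same-numbered arrays of the 2 times were not shown to be pairs (0.298, 0.175 and 0.0981; replicate 3 correlated at 0.133 with another number), and the replicate number as a block gave 10570 calls on 6 arrays and 11936 on all. For the lower flank the counts were 8371 without centring, 4505 in the brightest 25% and 5214 to 7266 with single arrays left out, and 6021 and 9405 with the block. For the difference between flanks, 156 became 26 without centring, 66 without the filter, 335 with the block on the flank arrays and 258 on all, 297 with flank pairs, 17 without replicate 1 of every group and 83 to 190 with single arrays left out. The nitrogen list's median was 0.09 and that of jasmonate 0.03 in place of -0.43 and -0.19 without replicate 1 of every group. Medians of the abscisic acid, gibberellin, heat shock protein, sucrose synthase, sugar transporter, WRKY, MADS, GATA, TCP, green tissue and leaf primordium lists changed sign with the scaling, so they have no direction. The planned promoter search was not run. Signals near or under the array median limit the precision.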

Other observations

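Families outside the lists above were looked up after the values had been seen, and their counts are a description with no test of the family. Over all tested genes 15.4% rose and 22.8% fell, and the smallest families hold too few genes to be set against these shares. Of 12 tested GH9 endoglucanases, which trim cellulose and related glucans, 9 fell and none rose, with a median log2 difference of -1.06. Of 4 DNA methyltransferases 3 fell, and none rose: MET1b by 2.95, CMT3a by 2.74 and MET1a by 1.37 on the log2 scale. MET1 and CMT3 enzymes copy and maintain methylation on newly made DNA.

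Of 3 strigolactone genes 2 rose and none fell. D14, the receptor, differed by 2.56 and D3, the F-box protein that works with it, by 2.02. Of 12 stress-associated proteins of the A20/AN1 family 4 rose and none fell, among them SAP1 by 1.70 and SAP11 by 1.60. Of 4 genes of alcohol fermentation 2 rose and none fell, with Adh2, an alcohol dehydrogenase, at 1.55. Of 18 glutaredoxins 4 rose and 3 fell, GRXC10 among the rises, which was near the shares over all genes. Expansin-like A genes were split, with 2 rises and 2 falls among 4, and of 7 laccases 3 fell and 1 rose. Among the SAUR genes described in the study's tables, the change was called different between the flanks for some. The difference, upper minus lower, was -1.46 for OsSAUR8, -1.44 for OsSAUR53, -1.40 for OsSAUR49 and -1.31 for OsSAUR48. Those tables were chosen partly by flank differences, so this is no independent evidence, and alternative fits were not looked at for these genes.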
